A study of Mus musculus with 24 samples.

Results

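The genes described here are p53 and its core target genes in mouse RNA, a list of 10 genes: Trp53, Cdkn1a, Mdm2, Ccng1, Bax, Bbc3, Pmaip1, Gadd45a, Sesn1 and Trp53inp1. A gene was taken where a probe set of the array carried its symbol and no other, with 1 probe set per gene. That rule found 7 of the 10, among 22180 genes with such a probe set. Trp53 itself, Bax and Gadd45a were not matched by the rule and are not analysed here, so every statement below is about the other 7. All 7 were among the 15234 genes tested, which lay above the array's median on at least 3 arrays; Bbc3 did so on 18 of 24 arrays, Sesn1 on 22, Pmaip1 on 23 and the other 4 on all 24.

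The arrays measured total RNA from mice whose strain was a mix of FVB, 129SVEV and Black Swiss, labelled wildtype or Mutant, at 4 stages coded V (virgin), dp12, dp18 and Lac10, with 3 arrays in each of the 8 groups. The series title concerns BRCA1, a protein that repairs DNA breaks and protects against breast tumours, and mutant titles carry the code Br-M, but the labels state neither the allele nor a promoter that drives it, nor the tissue or the age of the animals. Here dp is taken to mean a day of pregnancy and Lac a day of lactation, while the design text calls the numbers months. A treatment text that describes pulling down RNA with a FLAG-tagged PAB-1 protein goes against the Trizol total RNA named elsewhere in the labels. Most titles carry a body weight and mutant titles a number that differs from array to array, which points to separate animals, though no label says so outright.

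The p53 protein is a transcription factor that DNA damage and other stresses stabilise. It switches on genes that halt the cell cycle, repair damage or lead to cell death, and among them is Mdm2, whose product marks p53 for destruction and so closes a feedback loop. In the mammary gland, whose epithelium divides in pregnancy, and in cells that lack BRCA1, p53 limits the growth of cells with damaged DNA.

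The promoters of Cdkn1a, Mdm2 and Ccng1 are shown because these are the arrest and feedback genes that the levels below turn on, and because their windows hold the 10-base p53 motif. The sequences are those of RefSeq on build GRCm38.p6, from 250 bases before a gene's start to 50 after it, read along the gene's own strand, and capitals mark each match to the motif. The Cdkn1a window is chr17:29090729-29091028 on the plus strand, the Mdm2 window chr10:117710709-117711008 on the minus strand and the Ccng1 window chr11:40755237-40755536 on the minus strand.
Cdkn1a: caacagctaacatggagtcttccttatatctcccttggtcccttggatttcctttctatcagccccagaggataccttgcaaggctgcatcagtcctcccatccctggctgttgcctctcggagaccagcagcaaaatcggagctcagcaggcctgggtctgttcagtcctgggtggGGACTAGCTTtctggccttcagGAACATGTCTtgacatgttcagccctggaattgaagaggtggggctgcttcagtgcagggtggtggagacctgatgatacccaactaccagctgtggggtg
Mdm2: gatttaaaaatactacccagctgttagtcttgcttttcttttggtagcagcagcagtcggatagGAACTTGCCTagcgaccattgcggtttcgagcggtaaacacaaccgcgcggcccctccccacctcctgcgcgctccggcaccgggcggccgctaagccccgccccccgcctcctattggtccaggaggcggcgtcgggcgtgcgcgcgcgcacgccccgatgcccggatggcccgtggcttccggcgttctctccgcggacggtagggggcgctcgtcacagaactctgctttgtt
Ccng1: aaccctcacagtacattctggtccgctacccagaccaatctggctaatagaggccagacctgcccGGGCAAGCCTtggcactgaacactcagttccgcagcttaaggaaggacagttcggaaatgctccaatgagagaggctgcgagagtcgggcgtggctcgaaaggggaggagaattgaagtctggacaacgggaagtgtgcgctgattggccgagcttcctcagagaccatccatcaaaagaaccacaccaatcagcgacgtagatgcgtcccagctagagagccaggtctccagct
Counted from the gene's start, matches began at -73 and -51 in Cdkn1a, at -186 in Mdm2 and at -185 in Ccng1. The Cdkn1a window was the only one of the members' windows with a pair of matches at most 13 bases apart. The motif reads the same on both strands, so 1 search covered both, and no other motif was searched. Windows were found for 5 of the 7 members, 9 windows in all. The motif was in 4 of these 9, or 44.44%, against 8.36% of 32851 windows of all genes and 7.13% of 14840 windows of the genes tested. A pair of matches was in 0.073% of all windows. The second Cdkn1a window and the 3 of Bbc3 held no match, and 1 of the 2 Sesn1 windows held 1, beginning at -173. A match is a description of letters in this window and says nothing about binding.

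Arrays were compared on log2 values of the deposited table, whose array medians lay between 5.31 and 5.62. Each array's median correlation with all others was 0.908 to 0.968 for 21 arrays and 0.799 to 0.863 for 3, which were wild-type dp18 replicate 1, mutant dp18 replicate 1 and mutant Lac10 replicate 2. The mean log2 level of 19 housekeeping genes was 8.44 to 8.97 on those 3 arrays and 9.20 to 9.63 on the others. Of the 7 members, Mdm2, Pmaip1 and Sesn1 had all 3 of their lowest values on these arrays, Cdkn1a, Bbc3 and Trp53inp1 had 2 of 3, and Ccng1 had 1 of 3. Results that rest on these arrays are therefore given with and without them. The labels give no tissue to check, and in wild type from V to Lac10 13 of 16 milk and secretory genes rose and none fell, with a median of 3.51.

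In mutants the arrest gene Cdkn1a and the feedback gene Mdm2 fell from V to Lac10, to levels 3.04-fold and 3.01-fold lower, and no other member passed the test in that step. In wild type no member passed from V to Lac10. Between the genotypes no member passed at any stage. At V all 7 members lay higher in mutants and at Lac10 all 7 lay lower, as differences of group means that did not pass.

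Cdkn1a encodes p21, the inhibitor of cyclin-dependent kinases through which p53 halts the cell cycle. On the 3 virgin arrays it stood at a log2 level of 8.55, 9.86 and 9.49 in wild type and at 9.41, 9.83 and 9.76 in mutants. At Lac10 it stood at 8.93, 9.32 and 8.90 in wild type and at 8.68, 7.29 and 8.22 in mutants. All 3 mutant Lac10 arrays were thus below all 3 mutant virgin arrays and all 3 wild-type Lac10 arrays, and the lowest of them was replicate 2.

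In between, Cdkn1a levels at dp12 were 8.76, 8.66 and 8.93 in wild type and 8.96, 8.65 and 8.61 in mutants. At dp18 they were 8.18, 8.96 and 8.66 in wild type and 8.25, 8.24 and 9.28 in mutants. The genotypes overlapped at both stages. In order of group means, mutant V was highest at 9.67 ± 0.23 (SD, n = 3) and mutant Lac10 lowest at 8.06 ± 0.71 (SD, n = 3). Of the 7 gaps between neighbours in that order, only the last, of 0.53 between mutant dp18 and mutant Lac10, was larger than the pooled SD of 0.45 within groups.

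The Cdkn1a difference in mutants from V to Lac10 was -1.60 (log2, SE 0.35, limma adjusted p = 0.0229). In wild type the same step was -0.25 (SE 0.35, adjusted p = 0.687), and averaged over genotypes it was -0.93 (SE 0.25, adjusted p = 0.0283). The difference between the genotypes in this step was -1.35 (SE 0.50, adjusted p = 0.0967) and did not pass. A larger fall in mutants than in wild type was therefore not shown for Cdkn1a.

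Mdm2 encodes the ubiquitin ligase that limits p53. Its virgin levels were 7.74, 8.41 and 8.38 in wild type and 8.90, 8.88 and 8.88 in mutants. Its Lac10 levels were 8.39, 8.33 and 8.22 in wild type and 7.79, 6.20 and 7.90 in mutants. The mutant arrays were all above the wild-type arrays at V and all below them at Lac10.

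At dp12 Mdm2 was 8.61, 8.36 and 8.70 in wild type and 8.64, 8.34 and 8.42 in mutants. At dp18 it was 7.12, 8.47 and 8.41 in wild type and 6.93, 7.81 and 8.67 in mutants. Both stages overlapped between genotypes, and the low dp18 value of each genotype came from an array of low correlation. Group means ran from 8.89 ± 0.01 (SD, n = 3) in mutant V to 7.29 ± 0.95 (SD, n = 3) in mutant Lac10, and none of the 7 gaps between neighbours exceeded the pooled SD of 0.55.

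The Mdm2 difference in mutants from V to Lac10 was -1.59 (log2, SE 0.42, limma adjusted p = 0.0473), against 0.14 (SE 0.42, adjusted p = 0.866) in wild type. The difference between those steps was -1.73 (SE 0.60, adjusted p = 0.0863) and did not pass. Without the 3 arrays of low correlation it was -1.18 (adjusted p = 0.0186) and passed, as did 13.2% of all genes. In this mutant step 2 of 7 members fell, against 2.88% of all genes tested that passed in either direction and 2.59% that passed lower. Groups did not overlap in 4 of 7 members, namely Cdkn1a, Mdm2, Pmaip1 and Trp53inp1, against 22.4% of all genes. The median difference of the 7 was -0.69, and that of all genes was -0.18. With housekeeping centring the Pmaip1 groups overlapped and the members' median was -0.43. Without the 3 arrays of low correlation that median was -0.41.

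Both mutant calls changed with the arrays used. With each of the 24 arrays left out in turn, Cdkn1a passed in 21 fits and Mdm2 in 8, with an Mdm2 adjusted p between 0.0173 and 0.335. Without mutant Lac10 replicate 2, the Cdkn1a difference was -1.22 (adjusted p = 0.168) and that of Mdm2 -1.04 (adjusted p = 0.335), and neither passed. The share of all genes that passed fell there too, from 2.88% with all arrays to 0.453%. Without mutant V replicate 2 the difference was -1.52 for Cdkn1a (adjusted p = 0.112) and -1.59 for Mdm2 (adjusted p = 0.159), and without mutant V replicate 3 it was -1.55 (adjusted p = 0.0692) and -1.59 (adjusted p = 0.11), so that no call was left. Of all 15234 genes, 64 passed without mutant V replicate 2, against 438 with all arrays. Without all 3 arrays of low correlation, Mdm2 passed at -1.04 (adjusted p = 0.0253) and Cdkn1a did not at -1.22 (adjusted p = 0.0582), where 2.33% of all genes passed. With each array centred on the housekeeping genes, both passed, Cdkn1a at -1.34 (adjusted p = 0.0187) and Mdm2 at -1.33 (adjusted p = 0.014), where 4.1% of all genes passed.

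Markers of cell types moved in the same mutant step. Of 15 luminal epithelium genes 14 lay lower at Lac10 and 2 fell, with a median of -1.64. The mean log2 level of that list was 9.45 to 9.66 on mutant virgin arrays and 9.55, 6.62 and 7.73 on mutant Lac10 replicates 1, 2 and 3. All 13 white adipocyte genes lay higher, 1 of them rose, and the list's mean level was 6.63 to 7.13 at V and 6.81, 7.94 and 9.45 at Lac10. Other epithelial lists went up. Of 16 milk and secretory genes 15 lay higher and 8 rose, with a median of 1.63. Of 8 basal and myoepithelial genes 7 lay higher and 2 rose, with a median of 0.78. Of 12 endothelial genes 11 lay higher, with a median of 0.48. The lymphocyte, macrophage and neutrophil, and skeletal muscle lists had medians of -0.005, -0.11 and 0.01. In bulk RNA fewer cells of a type and less RNA per cell cannot be told apart, and the part of these lists in the falls of Cdkn1a and Mdm2 was not tested. On mutant Lac10 replicate 1, where the luminal level was 9.55, Cdkn1a was 8.68 and Mdm2 7.79. Both lay below every mutant virgin array and inside the wild-type virgin ranges, 8.55 to 9.86 and 7.74 to 8.41. On replicates 2 and 3, with luminal levels of 6.62 and 7.73, Cdkn1a was 7.29 and 8.22 and Mdm2 6.20 and 7.90. With 3 arrays nothing is concluded from this on the part of these lists.

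**Figure D1:**
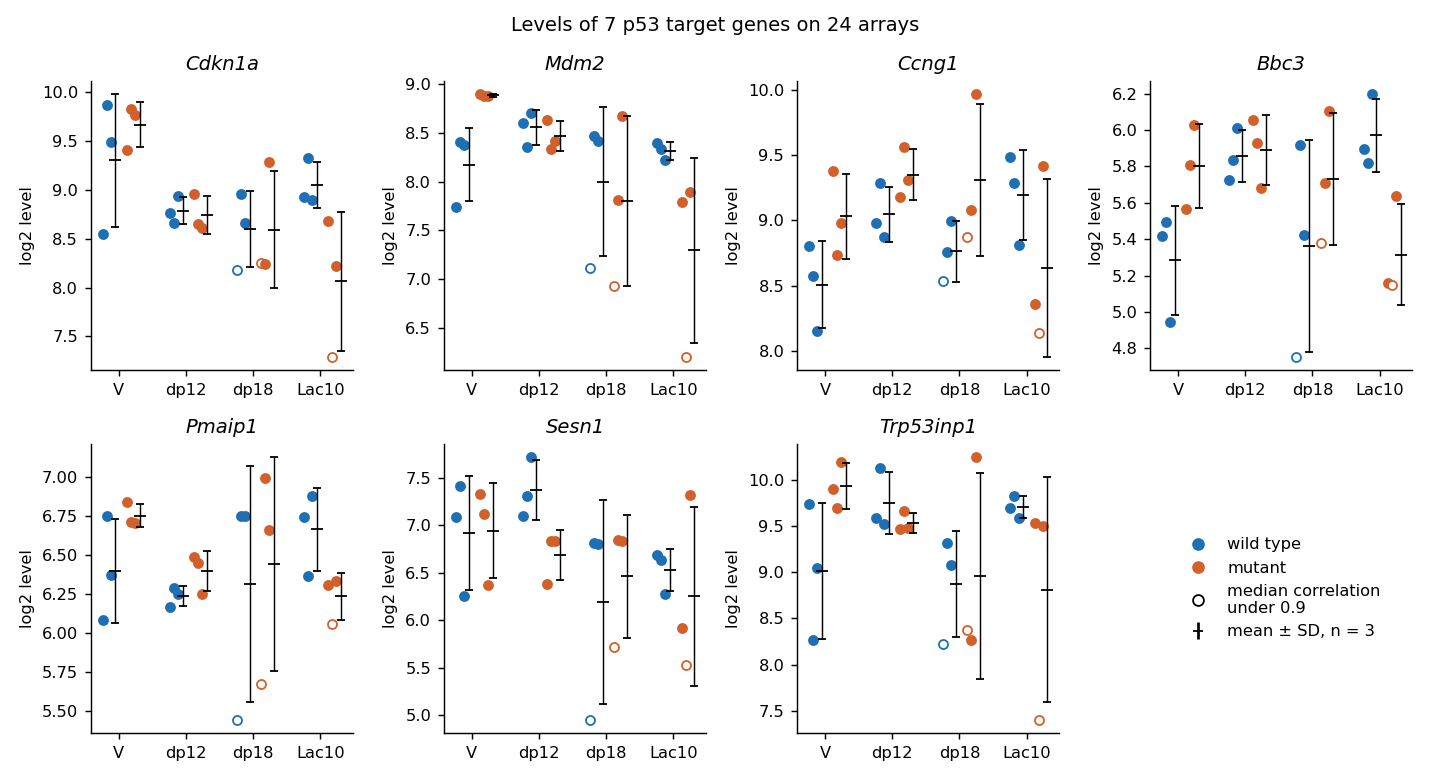
Log2 level (vertical axis) of each of the 7 genes on each of 24 arrays by stage, with wild type and mutant in separate colours; open circles are the 3 arrays of low correlation and bars are the mean ± SD of 3 arrays. Mutant Lac10 arrays sit between 7.29 and 8.68 for Cdkn1a, below mutant virgin arrays at 9.41 to 9.83, and open circles mark many of the lowest points.

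**Figure D2:**
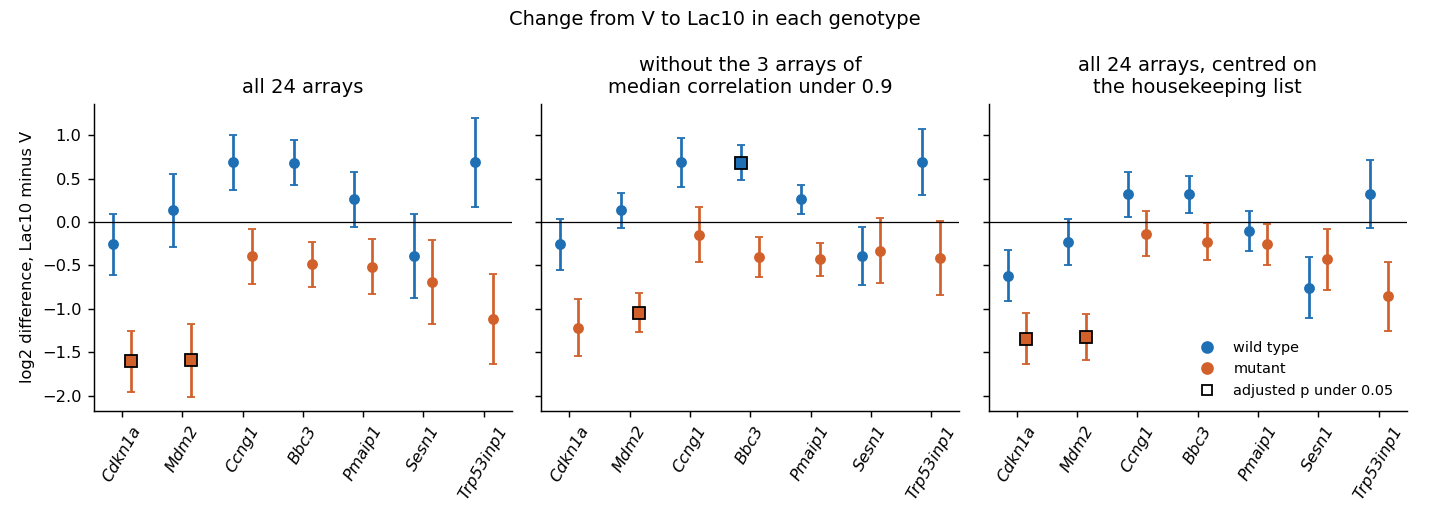
Log2 difference from V to Lac10 (vertical axis, Lac10 minus V, with its SE) of each gene in wild type and mutants, with all arrays, without the 3 arrays of low correlation, and centred on the housekeeping list; squares mark an adjusted p under 0.05. Cdkn1a and Mdm2 in mutants are at -1.60 and -1.59 with all arrays, and at -1.22 and -1.04 without the 3 arrays.

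Ccng1 encodes cyclin G1, a p53 target that acts with Mdm2 in the feedback loop. Its virgin levels were 8.80, 8.57 and 8.15 in wild type and 9.38, 8.74 and 8.98 in mutants. At Lac10 they were 9.49, 9.28 and 8.81 in wild type and 8.36, 8.13 and 9.41 in mutants. Groups overlapped at both stages, since 1 mutant Lac10 array lay among the wild-type values. The highest group mean was mutant dp12 at 9.35 ± 0.20 and the lowest wild-type V at 8.51 ± 0.33 (SD, n = 3 each), with no gap between neighbours above the pooled SD of 0.40. From V to Lac10 Ccng1 differed by 0.69 in wild type (SE 0.32, limma adjusted p = 0.186) and by -0.40 in mutants (SE 0.32, adjusted p = 0.432).

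Among the death genes, Bbc3 encodes PUMA, a BH3-only protein that triggers apoptosis at mitochondria. Its virgin levels were 5.42, 5.49 and 4.94 in wild type and 5.57, 5.81 and 6.03 in mutants. Its Lac10 levels were 5.90, 5.82 and 6.20 in wild type and 5.16, 5.15 and 5.64 in mutants. As for Mdm2, mutant arrays were all above wild type at V and all below at Lac10, though the Bbc3 probe set was among the dimmer ones and passed its array's median on 18 of 24 arrays. Between V and Lac10 the difference was 0.69 in wild type (SE 0.26, limma adjusted p = 0.113) and -0.49 in mutants (SE 0.26, adjusted p = 0.249). The difference between those steps was -1.17 (SE 0.37, adjusted p = 0.0763), the lowest adjusted p among the 7 for that comparison. Without the 3 arrays of low correlation that difference was -1.09 (adjusted p = 0.0269) and passed, as did 13.2% of all genes. The wild-type step, still 0.69, then passed too (adjusted p = 0.0185), as did 27.8% of all genes.

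Pmaip1 encodes Noxa, another BH3-only protein. It stood at 6.08, 6.74 and 6.37 in wild-type V and at 6.83, 6.71 and 6.70 in mutant V. At Lac10 it was 6.74, 6.37 and 6.88 in wild type and 6.31, 6.06 and 6.33 in mutants. The mutant Lac10 arrays lay just below the lowest wild-type array, with a genotype difference of -0.43 (SE 0.32, limma adjusted p = 0.467). From V to Lac10 it differed by 0.26 in wild type and by -0.52 in mutants (SE 0.32, adjusted p = 0.306). The range of its 8 group means was 0.52, and the pooled SD within groups was 0.40.

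Sesn1 encodes sestrin 1, which restrains growth signalling and oxidative damage after p53 is active. Its 24 values ran from 4.95 in wild-type dp18 replicate 1 to 7.72 in wild-type dp12 replicate 3. At dp12 it was 7.10, 7.31 and 7.72 in wild type and 6.39, 6.84 and 6.84 in mutants. Those groups did not overlap, and the difference of -0.69 (SE 0.48, limma adjusted p = 1.0) did not pass. From V to Lac10 it differed by -0.39 in wild type and by -0.69 in mutants (SE 0.48, adjusted p = 0.365). Sesn1 was the only member whose groups did not overlap between genotypes at dp12, against 16.9% of all genes.

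Trp53inp1 encodes a stress protein that supports p53 activity and autophagy. In V it stood at 9.74, 8.26 and 9.04 in wild type and at 9.90, 9.69 and 10.19 in mutants. At Lac10 it was 9.70, 9.82 and 9.59 in wild type and 9.53, 7.40 and 9.5 in mutants. The mutant Lac10 mean of 8.81 ± 1.22 (SD, n = 3) included replicate 2 at 7.40, and the other mutant arrays lay just below the lowest wild-type array. Without that array the genotype difference at Lac10 was -0.19, against -0.89 with it (SE 0.52, limma adjusted p = 0.361).

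Across genotypes, the study's main comparison, 0 of 7 members passed at V, dp12, dp18 or Lac10 in limma. The shares of all genes that passed were 0.0263% at V, 0.0% at dp12, 0.0% at dp18 and 0.236% at Lac10, and 0.0% for the average over stages, where 0 of 7 members passed too. At an unadjusted p under 0.05 the counts were 0, 0, 0 and 3 of 7 at the 4 stages and 0 of 7 for the average. The 3 at Lac10 were Cdkn1a, Mdm2 and Bbc3. Of the 15234 genes 2403, 184, 100 and 2676 had such a p at the 4 stages, and 458 for the average.

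At V the median genotype difference of the members was 0.52, against 0.20 for all genes, and all 7 were above 0; with housekeeping centring Sesn1 turned to -0.15. The largest was Trp53inp1 at 0.91 (SE 0.52, adjusted p = 0.368), followed by Mdm2 at 0.71 (SE 0.42, adjusted p = 0.39) in limma. Groups did not overlap in 2 of 7, Mdm2 and Bbc3, against 34.1% of all genes. Without the 3 arrays of low correlation the Mdm2 difference at V, still 0.71, passed (adjusted p = 0.0219), and so did 20.1% of all genes. At Lac10 the median was -0.66, against -0.19 for all genes, and all 7 were below 0; with housekeeping centring Pmaip1 turned to 0.02 and Sesn1 to 0.17. Groups did not overlap in 5 of 7, namely Cdkn1a, Mdm2, Bbc3, Pmaip1 and Trp53inp1, against 15.7% of all genes. With housekeeping centring only Mdm2 stayed apart, and the members' median was -0.20. Without the 3 arrays of low correlation 6 of 7 lay lower at Lac10, with a median of -0.34. The largest differences at Lac10 were those of Mdm2, -1.02 (SE 0.42, adjusted p = 0.227), and Cdkn1a, -0.98 (SE 0.35, adjusted p = 0.167).

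Cell type markers lay apart between the genotypes at the same stages. At V all 15 luminal epithelium genes lay higher in mutants, with a median difference of 0.45 and a mean log2 level of the list of 8.57 to 9.23 in wild type and 9.45 to 9.66 in mutants. All 15 macrophage and neutrophil genes lay lower there, with a median of -0.43 and list levels of 6.15 to 8.69 and 6.79 to 7.29. At Lac10 14 of 15 luminal genes lay lower in mutants, with a median of -1.03 and list levels of 8.50 to 9.56 in wild type and 6.62 to 9.55 in mutants. Of 16 milk and secretory genes 13 lay lower, with a median of -0.88, and of 15 macrophage and neutrophil genes 13 did, with a median of -0.70. No gene of these lists passed in limma at V or Lac10, and their part in the members' genotype differences was not tested.

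At dp12 the genotype differences ran from -0.69 for Sesn1 to 0.31 for Ccng1 with a median of -0.05. At dp18 they ran from -0.20 for Mdm2 to 0.54 for Ccng1 with a median of 0.13, and no member's groups were apart, against 2.34% of all genes. The 95% interval of the Cdkn1a difference was -0.78 to 0.69 at dp12 and -0.74 to 0.72 at dp18, so a difference of up to about that size is not shown to be absent. For Mdm2 the interval was -0.97 to 0.79 at dp12.

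The test that the 4 genotype differences of a gene are equal passed for 0 of 7 members and 0.00656% of all genes in limma. The lowest adjusted p of that limma test among members was 0.36. An unadjusted p under 0.05 was found for 1 of 7 members and for 1892 of 15234 genes. Taken step by step, the genotypes' steps differed for 0 of 7 members from V to dp12 (0.00656% of genes), dp12 to dp18 (0.0%), dp18 to Lac10 (0.0%) and V to Lac10 (0.0197%). Unadjusted p-values under 0.05 were found for 0, 0, 2 and 5 of 7 members in those steps. In the same order 907, 63, 954 and 4688 of 15234 genes had such a p. In the step V to Lac10 the median of the members was -1.17 against -0.44 for all genes.

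**Figure D3:**
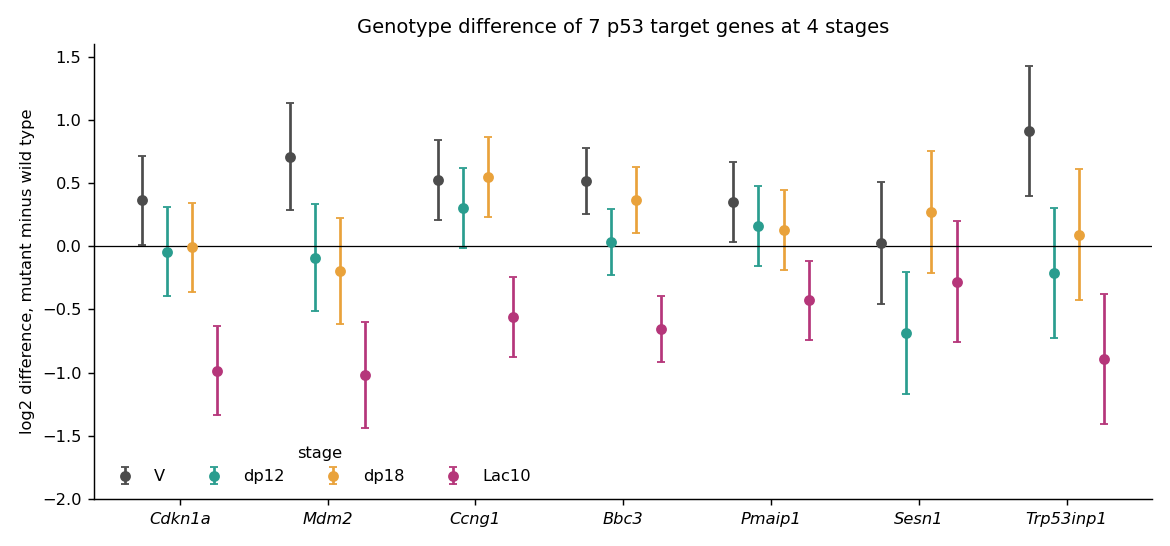
Genotype difference (vertical axis, log2, mutant minus wild type, with its SE) of the 7 genes at the 4 stages, each stage in its own colour and each point from 3 arrays a group. All 7 points of V lie above 0, from 0.02 for Sesn1 to 0.91 for Trp53inp1, and all 7 of Lac10 lie below, from -0.28 for Sesn1 to -1.02 for Mdm2, and none passed the test.

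Of the stage steps within wild type, 0 of 7 members passed in limma from V to dp12 (6.45% of all genes), dp12 to dp18 (0.0%), dp18 to Lac10 (0.0%) or V to Lac10 (7.24%). Unadjusted p-values under 0.05 were found for 1, 1, 1 and 2 of 7 members in these steps, against 32.4%, 9.69%, 8.0% and 24.5% of all genes. Wild-type groups of V and Lac10 did not overlap for Ccng1 and Bbc3, 2 of 7, against 37.4% of all genes. From dp18 to Lac10 all 7 means were higher in wild type, with a median of 0.43, and all 7 were lower in mutants, with a median of -0.42, but with housekeeping centring Pmaip1 (0.14), Sesn1 (0.14) and Trp53inp1 (0.20) turned higher in mutants. Wild-type dp18, mutant dp18 and mutant Lac10 each hold an array of low correlation, and without these arrays 4 of 7 were higher in wild type and 6 of 7 lower in mutants.

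From dp12 to dp18 the differences in wild type ran from -1.18 for Sesn1 (SE 0.48, limma adjusted p = 0.484) to 0.08 for Pmaip1, and those in mutants from -0.66 for Mdm2 (SE 0.42, adjusted p = 0.451) to 0.05 for Pmaip1. All members but Pmaip1 had a difference below 0 in both genotypes, while with housekeeping centring 4 of 7 did in wild type and 2 of 7 in mutants.

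Within mutants, 0 of 7 passed from V to dp12 (4.44% of all genes), dp12 to dp18 (0.0%) and dp18 to Lac10 (0.0%). At an unadjusted p under 0.05 there were 1, 0 and 1 of 7, against 15.3%, 13.7% and 2.95% of all genes. The member with the lowest adjusted p from V to dp12 was Cdkn1a at -0.93 (SE 0.35, limma adjusted p = 0.168). With housekeeping centring that difference was -1.29 (adjusted p = 0.00938) and passed, as did 10.5% of all genes.

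With steps averaged over genotypes, Cdkn1a was the 1 member of 7 that passed from V to Lac10, where 6.6% of all genes passed and 3.53% passed lower. No member passed from V to dp12 (15.8% of genes), dp12 to dp18 (2.05%) or dp18 to Lac10 (0.0%), with 1, 0 and 0 of 7 at an unadjusted p under 0.05. Cdkn1a was closest from V to dp12 at -0.72 (SE 0.25, limma adjusted p = 0.053). With housekeeping centring it was -1.14 (adjusted p = 0.00111), where 19.2% of all genes passed. Without mutant Lac10 replicate 2 the averaged step of Cdkn1a to Lac10 was -0.74 (adjusted p = 0.0636) and did not pass, where 6.91% of all genes passed. It was lost too at -0.90 to -0.79 (adjusted p of 0.0592 to 0.078) without any 1 of wild-type V replicates 2 and 3, mutant V replicates 2 and 3 and wild-type Lac10 replicate 3.

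Cdkn1a and Mdm2 varied together over the 24 arrays. Pearson's r was 0.819 (permutation p = 1e-05, the smallest that 100000 resamples can give, adjusted p = 0.00021 over 21 member pairs) and Spearman's rho was 0.741 (permutation p = 5e-05, adjusted p = 0.00105). Without the 2 arrays farthest from the median of Cdkn1a r was 0.769, without the 3 arrays of low correlation 0.684, and within groups, after each group's mean was taken off, 0.825. With housekeeping centring r was 0.748.

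The other pairs depended more on the arrays of low correlation. All 21 pairs had r above 0, with a median of 0.54, and 17 passed by Pearson's r and 6 by Spearman's rho after adjustment over the 21. Without the 3 arrays of low correlation the median was 0.206 and 16 pairs were above 0, and with housekeeping centring the median was 0.176. Members also followed the housekeeping level of their array. For Mdm2 r with that level was 0.88 (permutation p = 1e-05, the smallest possible, adjusted p = 7e-05 over 7 members) and rho 0.667 (permutation p = 0.00042, adjusted p = 0.00294), with r of 0.707 without the 2 arrays of the most distant housekeeping level and 0.519 without the 3 arrays. For Cdkn1a r was 0.54 (permutation p = 0.00763, adjusted p = 0.0089) and rho was 0.277 (permutation p = 0.192, adjusted p = 0.223). Its r was 0.094 without the 2 most distant arrays and -0.119 without the 3 arrays of low correlation, so that relation rests on those arrays.

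**Figure D4:**
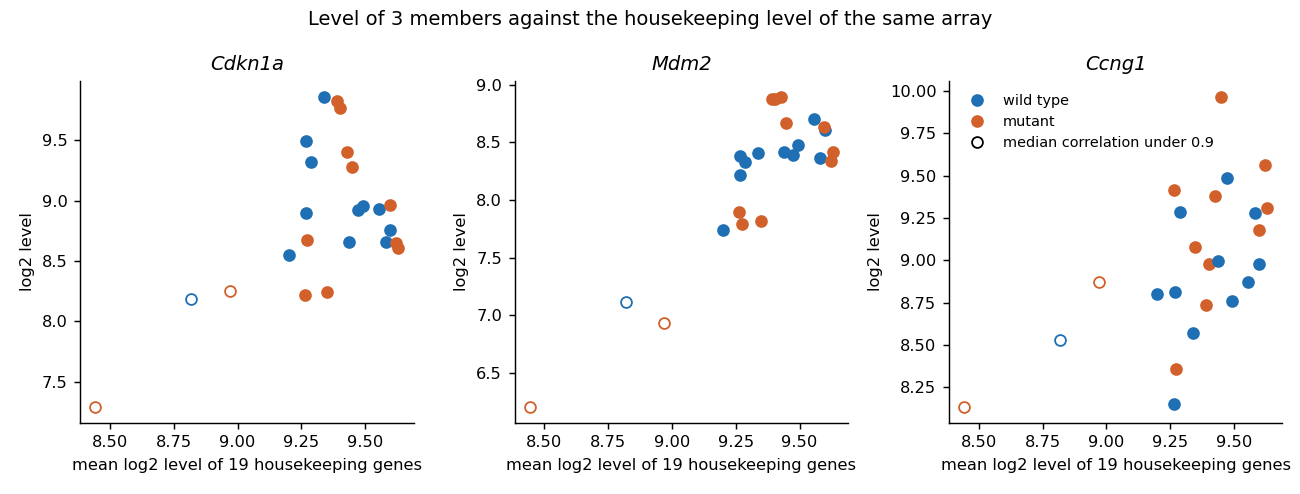
Log2 level of Cdkn1a, Mdm2 and Ccng1 (vertical axis) against the mean log2 level of 19 housekeeping genes on the same array (horizontal axis), with 24 arrays coloured by genotype and the 3 arrays of low correlation open. The 3 open points lie at housekeeping levels of 8.44 to 8.97, left of all others, and hold the 3 lowest values of Mdm2.

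The genes most like Cdkn1a over the 24 arrays, by Pearson's r among all genes tested, were Csf3 (0.943), Hmox1 (0.924) and Txnrd1 (0.915). Csf3 encodes a growth factor for granulocytes, and Hmox1 and Txnrd1 encode enzymes of haem breakdown and of thioredoxin reduction. The genes most like Mdm2 were Kpna1 (0.972), Spty2d1 (0.97) and Sf1 (0.961), and those most like Ccng1 were Dcaf8 (0.865), Cbr4 (0.857) and Taf1a (0.85). All these values share arrays, normalization and the housekeeping level described above, and are given as a description.

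Beyond the members, 72 other p53 target genes and 26 regulators of p53 were tested. From V to dp12 in wild type 6 of the 72 targets rose and none fell, 8.33% against 6.45% of all genes, and 5 of 26 regulators rose. In mutants 4 targets rose and 1 fell, 6.94% against 4.44%, and 2 regulators rose. The targets that rose in both genotypes included Cdc25c, by 1.91 in wild type and 2.41 in mutants, Ckap2, by 2.39 and 2.47, and Gtse1, by 1.20 and 1.30, genes of mitosis and of the G2 phase. Without wild-type V replicate 2 no target and no regulator passed in wild type, and none of the 15234 genes passed in that step. There 21 of 72 targets and 7 of 26 regulators had an unadjusted p under 0.05, against 27.3% of all genes. With housekeeping centring 1 target rose in wild type, Ckap2, and in mutants 3 rose and 6 fell, where 0.998% and 10.5% of all genes passed. Of the regulators Chek2 alone rose with that centring in either genotype, and in mutants Crebbp, Hipk2, Sirt1 and Usp7 fell. In the same step all 23 cell division genes tested rose in wild type and in mutants, with medians of 2.15 and 2.56, and the part of cell division in these target genes was not tested.

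Other members of the target lists also rose in that step. Pank1, an enzyme of coenzyme A synthesis, rose by 1.15 in wild type and by 1.54 in mutants. In wild type Btg2, a growth-arrest gene, rose by 1.13 and Acad11, an enzyme of fatty acid breakdown, by 1.16. In mutants Ptgs2, the inducible cyclooxygenase, fell by 1.94. Among the regulators the damage kinases Chek2 (1.92 and 2.36) and Chek1 (1.01 and 1.05) rose in both genotypes and Atm (1.37) and Atr (1.22) rose in wild type.

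From V to Lac10 in wild type 5 of 72 targets rose and none fell, 6.94% against 7.24% of all genes, with Gadd45g at 1.5, Acad11 at 1.40, Pank1 at 1.39, Btg2 at 0.99 and Cd82 at 0.88. With housekeeping centring 3 rose there and 2, Plk2 and Ptgs2, fell, and with array weights 24 rose and 13 fell, where 8.26% and 54.0% of all genes passed. The weighted means rested mostly on 1 array each, wild-type V replicate 3 (weight 4.61) and wild-type Lac10 replicate 2 (weight 3.94). Without wild-type V replicate 2 the 2 that rose were Acad11 and Gadd45g, where 4.36% of all genes passed. In mutants 3 of 72 fell and none rose, 4.17% against 2.88%, namely Sesn2 at -2.14, Thbs1 at -1.95 and Bcl2l11 at -1.61. Sesn2 encodes a sestrin related to Sesn1, Thbs1 the matrix protein thrombospondin 1 and Bcl2l11 the BH3-only protein BIM. The regulator Ppp1r13l, which encodes the p53 inhibitor iASPP, fell by 1.17 in mutants, and Chek2 (2.10) and Setd7 (1.28) rose in wild type. Without mutant Lac10 replicate 2, where 0.453% of all genes passed, none of the 72 targets and none of the 26 regulators fell in mutants. Of these 9 and 5 had an unadjusted p under 0.05, against 10.5% of all genes. Without the 3 arrays of low correlation Bcl2l11 fell alone, where 2.33% of all genes passed. The difference between genotypes in this step passed in limma for none of the 72 targets and none of the 26 regulators. Of these 23 and 15 had an unadjusted p under 0.05, against 30.8% of all genes. Without the 3 arrays of low correlation it passed, in the negative direction, for 3 targets, Aen, Cd82 and Tsc2, and for 4 regulators, Hipk2, Ppp1r13l, Trp53bp1 and Usp7, where 13.2% of all genes passed.

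Between genotypes no target or regulator passed in limma at any stage. Unadjusted p-values under 0.05 were found for 9, 2, 0 and 10 of 72 targets and 6, 0, 0 and 7 of 26 regulators at V, dp12, dp18 and Lac10, where 2403, 184, 100 and 2676 of the 15234 genes had such a p. Without the 3 arrays of low correlation 8 targets and 7 regulators were called at V, all higher in mutants, where 20.1% of all genes passed, and none at the Lac10 stage. With array weights 21 targets and 14 regulators passed at V, all higher, against 36.6% of all genes, and at Lac10 3 targets were higher and 6 lower and 3 regulators lower, against 21.7%. The weighted wild-type V mean rested mostly on replicate 3 (weight 4.61, against 0.50 and 0.38). Those at Lac10 rested mostly on wild-type replicate 2 (3.94) and mutant replicate 1 (1.54). At V 63 of 72 targets lay higher in mutants with a median of 0.29, against 0.20 for all genes, and at Lac10 15 of 72 did, with a median of -0.30, against -0.19. The largest differences among regulators were those of Mdm4 at V, 1.20 (SE 0.39, limma adjusted p = 0.236), and Chek2 at Lac10, -1.37 (SE 0.40, adjusted p = 0.0976). Mdm4 encodes a relative of Mdm2 that holds p53 inactive. Trp63 and Trp73, which encode the relatives of p53, passed in no comparison; at V their genotype differences were 0.21 and 0.07.

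**Figure D5:**
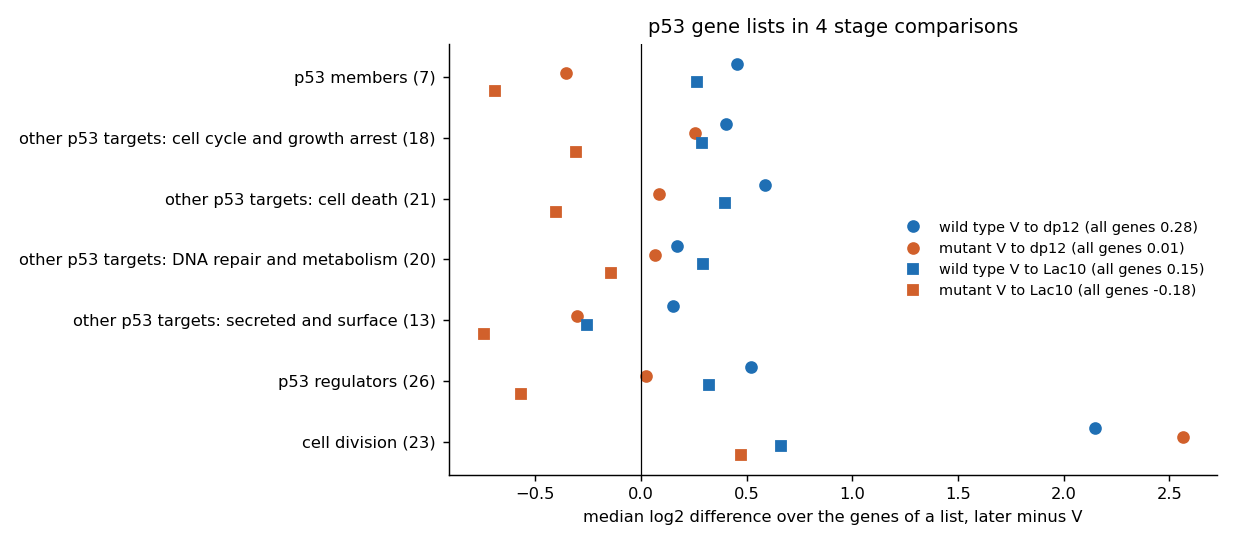
Median log2 difference (horizontal axis, later stage minus V) of the 7 members, 4 lists of other p53 targets, the p53 regulators and cell division genes, for V to dp12 (circles) and V to Lac10 (squares) in each genotype, with the number of genes tested in brackets. Cell division genes lie at 2.15 and 2.56 from V to dp12, while the members' medians run from -0.69 in mutants to 0.45 in wild type.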

How the data were processed

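Values are the deposited log2 expression values of 41345 probe sets on 24 single-colour arrays, made by the authors with RMA (robust multi-array average, which corrects background, normalizes arrays to 1 distribution and summarises probes), per the submitters' processing notes; its version is not stated. The deposited arrays did not all follow 1 distribution, since their medians ran from 5.31 to 5.62 and their SDs from 1.65 to 1.99. The median of all genes also differed between groups, by 0.20 for genotype at V. How far a change that most genes share was kept or removed cannot be told from these values. Trizol extraction and biotin labelling are per the labels' protocols. The number of arrays limits the precision.

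Gene names come from the array's annotation, through the 23521 probe sets with a single symbol; 1814 with several symbols and 16010 without one were left out. A gene with more than 1 such probe set is represented by that of highest mean over the 24 arrays. A gene was tested where at least 3 arrays lay above the array's median over all probe sets. No column of other samples was used (0).

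Groups follow the titles and stage labels. Titles number the wild-type replicates; numbers of the mutant replicates only follow the order of accessions. Each gene was fitted with limma 3.58.1 in R 4.3.3 on all 24 arrays, 1 mean per group (16 residual and 4.35 prior degrees of freedom), with Benjamini-Hochberg adjustment over 15234 genes and a threshold of 0.05. Genotype differences are mutant minus wild type, and stage differences are the later stage minus the earlier. The F test asked whether the 4 genotype differences of a gene are equal. The script was tested on simulated data. Correlations over arrays have 2-sided permutation p-values, although the plan for the analysis was to give them as a description. Promoter windows are from RefSeq, build GRCm38.p6.

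The members and gene lists were chosen with earlier results of these data known. Every member is counted in every comparison, with values for those described; of each other list up to 4 genes of largest difference that passed, or else 2; and the 3 genes most correlated with Cdkn1a, Mdm2 and Ccng1. Genes that passed only without doubted arrays are named as exceptions chosen after their values were seen. Alternatives covered probe set choice, the filter, 2 centrings, a variance trend, array weights, the compared groups alone, the wild-type replicate number as a block, and arrays left out. Housekeeping centring combined with leaving out the 3 arrays of low correlation was chosen after seeing the data.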

Additional observations from a re-analysis of the deposited data

Results flagged for a closer look

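Mdm2 and Bbc3 had genotype differences of opposite sign at V and at Lac10, with every mutant array on 1 side of every wild-type array at each stage; with housekeeping centring this remained for Mdm2, while the Bbc3 groups overlapped at both stages. For Mdm2 the difference was 0.709 at V and -1.02 at Lac10 (log2, mutant minus wild type). For Bbc3 it was 0.516 at V and -0.656 at Lac10. The change in genotype difference from V to Lac10 was tested as a contrast in limma and did not pass with all 24 arrays, with an adjusted p of 0.0863 for Mdm2 and 0.0763 for Bbc3. Over 35 alternatives that contrast passed for Mdm2 in 4 (adjusted p from 0.00552 to 0.286) and for Bbc3 in 4 (0.000528 to 0.281). The housekeeping level of the arrays was 9.20 to 9.34 in wild-type V and 9.39 to 9.43 in mutant V, and 9.27 to 9.47 in wild-type Lac10 and 8.44 to 9.27 in mutant Lac10; its part in these differences was not tested, and with housekeeping centring the contrast was -1.10 for Mdm2 and -0.54 for Bbc3, and neither passed.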

How the results depend on the processing

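Over 147 results and 5166 values under alternatives, 4838 kept their direction and side of the threshold, 68 newly passed, 34 no longer passed, 226 moved in size and 0 reversed as called values. The fall of Cdkn1a in mutants from V to Lac10 passed in 29 of 35 alternatives (-1.91 to -1.18) and that of Mdm2 in 15 of 35 (-1.89 to -1.04); the averaged step of Cdkn1a passed in 27 of 35 (-1.12 to -0.71, adjusted p 0.00434 to 0.0843). The cause of the changes below was not tested. Array weights put most of the weight of wild-type V on replicate 3 (4.61, against 0.50 and 0.38). For wild-type dp18 it lay on replicate 2 (5.97, against 0.095 and 0.97). At Lac10 it lay on wild-type replicate 2 (3.94) and mutant replicate 1 (1.54). Counts with array weights that use these groups therefore lean on single arrays.

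In mutants from V to Lac10, where 2 members passed, the count was 1 without a filter, with centring on the array median, without the 3 arrays of low correlation, with housekeeping centring without them, and without wild-type Lac10 replicate 1 and mutant dp18 replicate 2. It was 0 with the compared groups alone, and leaving out 1 array gave 0 to 2, with 0 without mutant V replicate 2, mutant V replicate 3 or mutant Lac10 replicate 2. For the step V to Lac10 averaged over genotypes, where 1 passed, it was 2 with housekeeping centring (14.0% of all genes) and with array weights (25.4%). It was also 2 with housekeeping centring without the 3 arrays, and 0 with array median centring and the compared groups alone. Leaving out 1 array gave 0 to 1, with 0 without wild-type V replicate 2 or 3, mutant V replicate 2 or 3, wild-type Lac10 replicate 3 or mutant Lac10 replicate 2.

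The other comparisons had 0 members with all arrays. With array weights, with the share of all genes in brackets, the counts were 4 for genotype at V (36.6%) and 2 at Lac10 (21.7%). For equality of the genotype differences the count was 3, where 5990 of 15234 genes passed. In wild type they were 5 from V to dp12 (63.9%), 1 from dp12 to dp18 (18.1%) and 3 from V to Lac10 (54.0%). For mutants from V to dp12 the count was 1 (26.9%). For averaged steps they were 4 from V to dp12 (60.2%) and 1 from dp12 to dp18 (16.8%). For the genotype difference in a step they were 4 from V to dp12 (28.2%) and 5 from V to Lac10 (41.6%). Without the 3 arrays of low correlation the count was 1 for genotype at V (20.1%). In wild type the counts were then 1 from V to dp12 (41.2%) and 1 from V to Lac10 (27.8%). They were 1 for the averaged step from V to dp12 (39.3%) and 2 for the genotype difference in the step V to Lac10 (13.2%). With housekeeping centring they were 1 for mutants from V to dp12 (10.5%) and 2 for the averaged step from V to dp12 (19.2%). Without the 3 arrays as well they were 3, 3 and, for wild type from V to dp12, 2. With the compared groups alone they were 1 for wild type from V to dp12, 1 for mutants from V to dp12 and 2 for the averaged step, and with a stricter filter 1 for the averaged step. Leaving out 1 array gave 0 to 1 for the averaged steps from V to dp12 and from dp12 to dp18. Over all genes these steps then passed for 1454 to 3157 and for 9 to 1912 of 15234. For the genotype difference in the step V to Lac10 leaving out 1 array gave 0 to 4 members. The count was 4 without mutant Lac10 replicate 3, where 3825 of all genes passed, and 2 without wild-type dp18 replicate 1. For the settings without brackets or a count, the share of all genes is not given here.

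The median correlation of member pairs was 0.54 as deposited and 0.176 with housekeeping centring. That centring moved the median of all genes by -0.17 for genotype at V, 0.45 for genotype at Lac10, -0.37 for the wild-type step from V to Lac10 and 0.26 for the mutant one. Counts over all genes also moved: in mutants from V to Lac10 they were 438 with all arrays, 9 with the compared groups alone and 1617 with array weights, and 64 to 1794 with 1 array left out. For genotype at Lac10 they were 36, from 0 without the 3 arrays of low correlation to 3306 with array weights, and for genotype at V 4, from 1 to 5573.

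With the wild-type replicate number as a block, 0 of 7 members passed in any wild-type step. Correlations of same-numbered deviations ran from -0.387 to 0.31 over 18 pairs, 4 of them over 0.1. Differently numbered arrays were not compared, so these values cannot show whether same-numbered arrays share more than a name. Mutant arrays carry no such number for a paired fit.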
